A study of Mus musculus with 12 samples.

Results

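The translocases that carry proteins into mitochondria were followed by RNA sequencing in mouse natural killer (NK) cells. These innate lymphocytes kill target cells and secrete interferon gamma. The genes were all protein-coding genes whose symbol starts with Timm or Tomm, which were 26 of the 21936 protein-coding genes and of the 55487 features in the table. There were 3 groups of 4 libraries each. All libraries came from mice of strain B6.129S4-Ifngtm3.1Lky/J with genotype mut/mut, in which YFP, a yellow fluorescent protein, reports expression of interferon gamma, and from cells primed with IL-15, a cytokine that sustains NK cells ("HD IL-15" in the labels, which do not expand HD). The first group was left unstimulated, and its labels give no time and no reporter gate. Comparisons with it therefore cannot tell the antibody apart from time in culture or sorting. The other cells received anti-NK1.1, an antibody to an activating NK cell receptor, and after 6 h were sorted by the reporter into YFP- and YFP+ groups, so both sorted groups saw the antibody. The labels do not say whether a YFP- and a YFP+ library with one replicate label came from the same cells. The labels give no age. Replicates are labelled f2, m2, m3 and m4 in each group. Nothing in the labels says that they are separate animals or cultures, so p-values measure only the spread between these libraries, which may be technical.

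Nearly all mitochondrial proteins are made in the cytosol and threaded through membrane complexes. The translocase of the outer membrane, TOM, receives them through the receptors Tomm20, Tomm22 and Tomm70a and passes them through the Tomm40 channel, with the small subunits Tomm5, Tomm6 and Tomm7. The TIM23 complex of the inner membrane takes proteins with a cleavable presequence, TIM22 inserts carrier proteins, and the small Tim proteins are chaperones that escort hydrophobic precursors across the space between the membranes. Activated lymphocytes grow and remodel their metabolism, and new mitochondrial proteins have to pass these complexes. The values here are RNA levels, so the amount of each protein and the rate of import were not measured.

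Library totals ran from 32143536 to 54242394 reads, and 3 reads corresponded to 0.0553 to 0.0933 CPM (counts scaled to a library total of 1000000). Features resembling ribosomal RNA held 27.4 to 35.3% of reads in unstimulated libraries, 15.9 to 30.3% in YFP- and 13.7 to 29.8% in YFP+. The YFP+ library m3 stood apart, with the lowest sample weight of the 12 (0.267) and the lowest median log2 CPM over the genes tested (3.25). The 9 NK markers summed to 11344 to 13984 CPM in unstimulated libraries, 17936 to 22304 CPM in YFP- libraries and 27143 to 39187 CPM in YFP+ libraries, a sum led by Gzmb (granzyme B), with means of 6165, 12849 and 24088 CPM. The other NK markers did not move alike. Means went down in that order of groups for Klrb1c, which encodes NK1.1 (308, 75.3 and 6.50 CPM), Eomes (108, 70.5 and 40.7) and Ncr1 (247, 222 and 123). They went up for Tbx21 (33.2, 80.9 and 85.7 CPM) and Prf1 (2559, 3424 and 4010). Klrk1 (188, 282 and 238 CPM) and Il2rb (1047, 1642 and 1013) were highest in YFP-, and Nkg7 (2515, 1835 and 2864) was lowest there. Of 8 T cell markers, Cd4 and Cd8a stayed at or below 0.193 CPM in every library and Cd3e at or below 1.49, whereas Trbc2 ranged from 135 to 314. The summed T list lay between 198 and 283 CPM in unstimulated libraries, 294 and 362 CPM in YFP- libraries and 347 and 410 CPM in YFP+ libraries. Trbc2 (means of 156, 252 and 291 CPM) and Trac (7.43, 34.3 and 48.4 CPM) carried this rise, while Cd3g (47.9, 32.5 and 20.6 CPM) and Cd3d (17.8, 15.7 and 10.4 CPM) went down in the same order of groups. The part of these genes in the results was not tested. Summed B cell, myeloid and red cell markers were at most 4.19, 3.18 and 0.326 CPM, and markers of other innate lymphoid cells at most 1.95. In bulk RNA, more cells expressing a gene and more RNA per cell cannot be told apart.

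Promoters were searched for short motifs because many members moved together in the data described below. RefSeq promoters on GRCm38.p6, from 250 bases before to 50 after each start, were held for 23 of the 26 genes, as 25 promoters. CACGTG, the E-box bound by Myc, Max and other factors, was found on either strand in 5 member promoters (20%), against 7.15% of all 32851 promoters and 10.2% of the promoters of genes tested here. The 5 genes were Timm9, Timm10, Timm8a1, Tomm20 and Tomm20l. CCGGAAG, a core of ETS family sites, was found on either strand in 11 of the 25 (44%), against 8.86% of all promoters and 19.2% of those of tested genes. GCGCATGCG, a core of the NRF1 motif, was found in 1 member promoter (4%), that of Timm13, against 1.75% of all promoters and 3.84% of those of tested genes. ACTACAATT, TGACGTCA and TGATGCAA were in no member promoter, against 0.393%, 1.79% and 0.895% of all promoters. In promoters of tested genes their shares were 0.787%, 3.27% and 0.678%. None of these motifs was counted as a site of binding. Shown first are upstream stretches of 3 promoters with the E-box, in genes that were among the strongest risers, with CACGTG in capitals: Timm9 at chr12:71136685-71136784, Timm8a1 at chrX:134541866-134541920 and Tomm20 at chr8:126945972-126946071, all on the minus strand of GRCm38.p6.
Timm9: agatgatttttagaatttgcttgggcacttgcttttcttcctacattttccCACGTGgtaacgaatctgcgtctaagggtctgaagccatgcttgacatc
Timm8a1: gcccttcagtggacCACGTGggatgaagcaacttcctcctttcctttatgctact
Tomm20: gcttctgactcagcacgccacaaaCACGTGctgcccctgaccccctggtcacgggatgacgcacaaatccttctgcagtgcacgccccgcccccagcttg
Next come Timm10 at chr2:84826912-84827011 (plus strand) and Timm23 at chr14:32201899-32201998 (minus strand), shown for the ETS core, which reads CTTCCGG on the strand printed and is in capitals. Timm10 had its E-box 28 bases after the start, outside the stretch shown. The last 15 bases of the Timm10 stretch, its marked motif included, lie before the RefSeq start but inside its annotated transcript in GENCODE M21.
Timm10: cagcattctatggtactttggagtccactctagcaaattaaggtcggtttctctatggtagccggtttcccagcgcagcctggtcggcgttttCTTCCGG
Timm23: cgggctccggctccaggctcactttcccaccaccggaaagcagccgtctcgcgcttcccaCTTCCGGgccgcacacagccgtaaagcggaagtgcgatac

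Most import translocase RNAs tested were higher in both sorted groups than in unstimulated cells, and none was called lower on the deposited scale. Of the 26 genes, 23 passed the filter (log2 CPM above 0 in at least 4 libraries) and were tested among 12364 genes with limma, with calls at an adjusted p (Benjamini-Hochberg) under 0.05. In YFP- against unstimulated cells, 18 of the 23 were called higher, against 30.2% of all genes tested, and 0 lower, against 20.9%. In YFP+ against unstimulated cells, 19 were called higher, against 27.5% of all genes, and 0 lower, against 33.3%. YFP+ against YFP- gave 4 higher, against 3.28% of all genes, and 0 lower, against 18.5%. In limma, 0 members were lower at an unadjusted p under 0.05 in any of the 3 comparisons, and 0 were called lower with voom weights. The median log2 change of the 23 genes was 0.69 in YFP- and 0.81 in YFP+ against unstimulated cells, where the median gene tested changed by 0.14 and -0.03. Between the sorted groups the members' median was 0.27 and that of all genes -0.19. All libraries of 18 members in YFP- and 17 in YFP+ lay above every unstimulated one, against 30.9% and 24.0% of all genes tested. For 0 members did they all lie below, against 21.7% and 30.8%. The values are reads over whole annotated genes, whose spans in GENCODE M21 on GRCm38 are, for the genes the results turn on, chr2:84826997-84830213 (Timm10, plus strand), chr12:71123173-71136684 (Timm9, minus), chr7:19701313-19715438 (Tomm40, minus) and chr1:135295213-135313778 (Timm17a, minus). Summed over the 26 genes, the level was 1095 ± 73.6 CPM (SD, n = 4) in unstimulated, 1943 ± 182 in YFP- and 2334 ± 164 in YFP+ libraries. Unstimulated libraries spanned 1020 to 1160 CPM and did not overlap the YFP- libraries at 1790 to 2202. The highest YFP- library just passed the lowest YFP+ library, since YFP+ spanned 2201 to 2560.

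**Figure D1:**
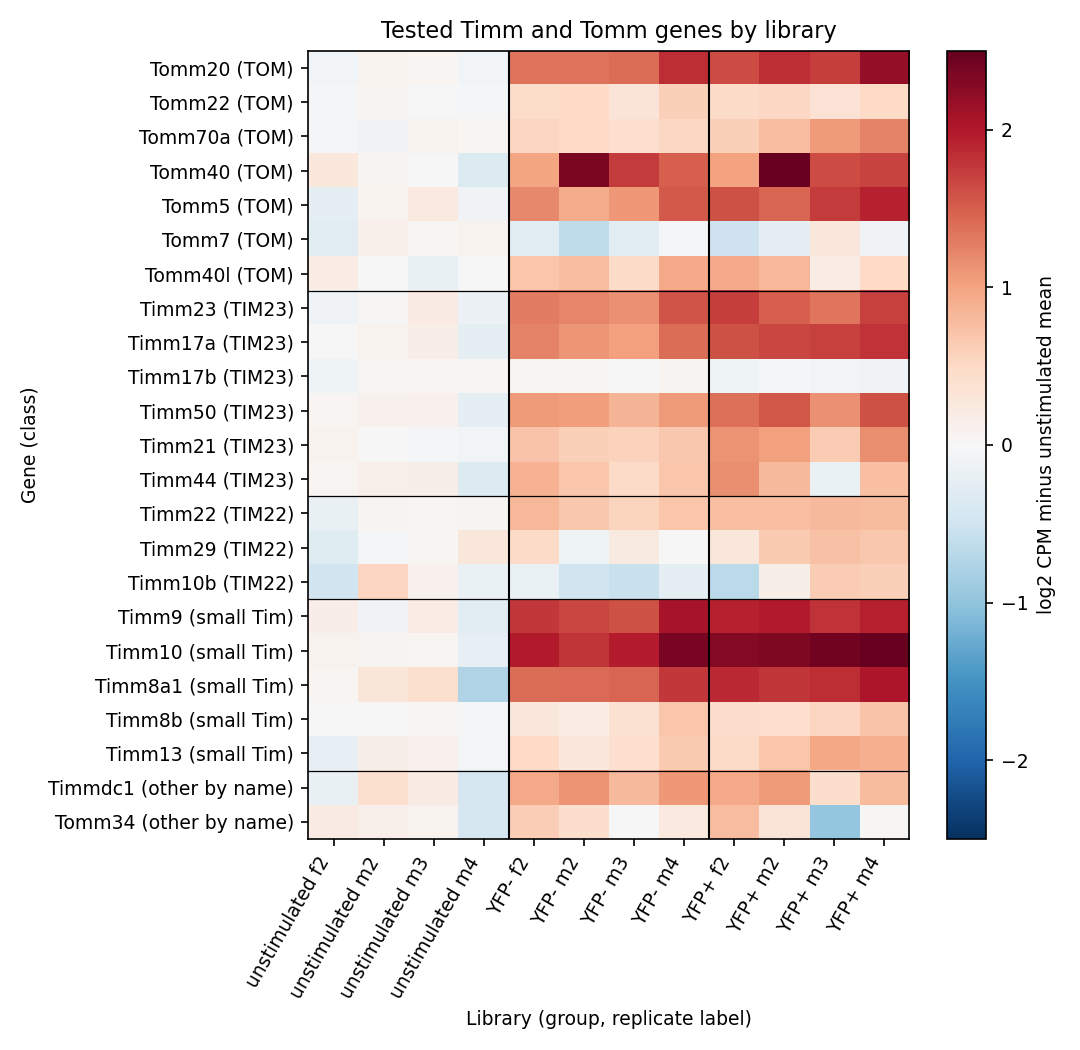
Level of each of the 23 tested genes (rows, with their class) in each of the 12 libraries (columns), as log2 CPM minus the mean of the 4 unstimulated libraries, with red for higher and blue for lower. Most rows turn red in both sorted groups, with Timm10, Timm9, Timm8a1, Tomm20 and Tomm40 the deepest, while Timm17b stays near 0. Tomm7 and Timm10b lie below 0 in YFP- libraries and on both sides of it in YFP+ libraries.

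In the outer membrane complex, 6 of 7 tested genes were called higher in each sorted group against unstimulated cells. Over all genes tested, 30.2% were called higher in YFP- and 27.5% in YFP+. Tomm20, the receptor for presequences, rose by 1.49 ± 0.14 on the log2 scale (SE) in YFP- (limma adjusted p = 2.7e-06) and by 1.85 ± 0.14 in YFP+ (adjusted p = 1.3e-07). Up to 4.67% of its 75-base stretches also occur in other genes, mainly the pseudogene Gm14494 (98 to 800 reads, against at least 2781 for Tomm20). Tomm22, the central receptor, rose by 0.47 and 0.46, which is 1.38-fold in both. Tomm70a, the receptor for carrier proteins, was at 4.75, 4.72, 4.90 and 4.86 log2 CPM in unstimulated libraries f2, m2, m3 and m4, at 5.34, 5.31, 5.23 and 5.33 in YFP- and at 5.41, 5.58, 5.88 and 6.04 in YFP+. No library of 1 group overlapped another group, and the rises over unstimulated cells were 0.49 (adjusted p = 0.0088) and 0.92 (adjusted p = 5.8e-05). The first of these calls was lost with quantile normalization, with centring on the sample median, with trimmed-mean scaling, with voom weights, and with features resembling ribosomal RNA (Lars2, Mir6236 and Gm23935 included) left out of the totals (0.30 to 0.38, adjusted p 0.052 to 0.17).

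Tomm40, the channel itself, stood at 4.16, 3.95, 3.90 and 3.55 log2 CPM in unstimulated libraries, at 4.88, 6.25, 5.64 and 5.39 in YFP- and at 4.90, 6.74, 5.53 and 5.59 in YFP+. Both sorted groups lay above all unstimulated libraries, with a rise of 1.65 ± 0.34 in YFP- (limma adjusted p = 0.0014) and 1.79 ± 0.34 in YFP+ (adjusted p = 0.00046). Within each sorted group the libraries labelled m2 were the highest and those labelled f2 the lowest. Tomm5, a small subunit of the channel, was at 5.55, 5.88, 6.04 and 5.71 in unstimulated libraries, at 7.0, 6.73, 6.89 and 7.33 in YFP- and at 7.38, 7.26, 7.54 and 7.72 in YFP+. It rose by 1.19 and 1.68 against unstimulated cells, a 2.28-fold and 3.20-fold change, and only the sorted groups overlapped each other. Tomm7, another small subunit, was not called in any comparison, with differences of -0.31 (YFP-) and -0.14 (YFP+) from unstimulated cells. With quantile normalization its difference in YFP- passed the threshold (-0.56, adjusted p = 0.049).

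In the TIM23 complex, 5 of 6 genes were called higher in each sorted group against unstimulated cells, and the exception was Timm17b. Calls higher made up 30.2% of all genes tested in YFP- and 27.5% in YFP+. The channel gene Timm23 rose by 1.30 ± 0.13 in YFP- and 1.57 ± 0.13 in YFP+ (limma adjusted p = 4.5e-06 and 2.9e-07), from 6.21 to 6.55 log2 CPM in unstimulated libraries to 7.49 to 7.93 and 7.69 to 8.09. Of its 75-base stretches, 52.1% also occur in other genes, so its level depends on how shared reads were assigned. Gm10273, the gene sharing most of them, held 4 to 20 reads. Reads matching both genes may have been counted for neither, which was not tested. Timm17a, a core subunit beside the channel, was at 6.48, 6.55, 6.63 and 6.22 in unstimulated libraries, at 7.71, 7.58, 7.50 and 7.86 in YFP- and at 8.06, 8.14, 8.18 and 8.27 in YFP+. The 3 groups did not overlap, and Timm17a rose 2.28-fold in YFP- and 3.23-fold in YFP+ over unstimulated cells. Its paralog Timm17b was at 6.78, 6.91, 6.93 and 6.90 in unstimulated libraries, at 6.91, 6.93, 6.89 and 6.95 in YFP- and at 6.77, 6.86, 6.81 and 6.79 in YFP+. Timm17b differed from unstimulated cells by 0.04 and -0.07 (adjusted p = 0.72 and 0.52), and the sign of these small differences changed with the scaling.

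Timm50, the receptor that receives presequence proteins from TOM, stood at 6.04, 6.09, 6.09 and 5.73 log2 CPM in unstimulated libraries, at 7.05, 7.02, 6.83 and 7.05 in YFP- and at 7.35, 7.54, 7.12 and 7.57 in YFP+. The 3 groups were separate, with rises of 1.0 ± 0.13 and 1.41 ± 0.13 over unstimulated cells (limma adjusted p = 3e-05 and 6.2e-07). Timm21, which couples TIM23 to TOM and to the respiratory chain, rose by 0.64 and 0.99 (adjusted p = 0.0013 and 2.4e-05). Timm44, the anchor of the import motor, was called higher by 0.69 (adjusted p = 0.023) and 0.64 (adjusted p = 0.026). Its YFP+ libraries ranged from 5.64 (m3) to 6.97 (f2) and overlapped the unstimulated range of 5.46 to 5.94. With no filter both Timm44 calls were lost (adjusted p = 0.16 for each), and with only the 8 libraries compared the YFP+ call was lost (0.055). Without the YFP+ library m3 the Timm44 change in YFP+ was 0.91 (adjusted p = 0.00017). The YFP+ call was lost without unstimulated m4 (0.53, adjusted p = 0.079) and without YFP+ f2 (0.47, 0.078), m2 (0.59, 0.062) or m4 (0.61, 0.058). The YFP- call was lost without unstimulated m4 (0.57, adjusted p = 0.072) or YFP- f2 (0.62, 0.062).

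Of the 3 TIM22 genes, 1 was called higher in YFP- and 2 in YFP+ against unstimulated cells, where 30.2% and 27.5% of all genes were called higher. Timm22, the channel that inserts carrier proteins, rose by 0.69 ± 0.11 and 0.77 ± 0.11 (limma adjusted p = 0.00015 and 3.1e-05), and its YFP+ libraries lay within 5.97 to 6.05 log2 CPM. Timm29, a subunit that links TIM22 to TOM, differed by 0.15 in YFP- (adjusted p = 0.51) and rose by 0.59 in YFP+ (adjusted p = 0.011). The lowest YFP+ library (3.20) and the highest unstimulated library (3.21) of Timm29 met, and the call was lost with the ribosomal features left out of the totals (0.40, adjusted p = 0.12). Timm10b, the small Tim protein bound to TIM22, was at 3.24, 4.27, 3.83 and 3.55 in unstimulated libraries, at 3.56, 3.23, 3.16 and 3.48 in YFP- and at 3.05, 3.86, 4.36 and 4.33 in YFP+. All 3 groups of Timm10b overlapped, and it was not called in any comparison. Other genes lie over 22.1% of its exonic bases, among them Arfip2 on the opposite strand (305 to 1245 reads, against 359 to 789 for Timm10b), and reads of the 2 genes cannot be told apart where the strand was not used.

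All 5 tested small Tim chaperones were called higher in both sorted groups against unstimulated cells, and the largest rises of any member were among them. The share of all genes tested that was called higher was 30.2% in YFP- and 27.5% in YFP+. Timm10, which forms a hexamer with Timm9 that escorts carrier proteins, was at 4.14, 4.12, 4.12 and 3.86 log2 CPM in unstimulated libraries, at 6.05, 5.86, 6.03 and 6.43 in YFP- and at 6.36, 6.39, 6.46 and 6.54 in YFP+. Neither sorted group came near the unstimulated libraries, and the rise was 2.03 ± 0.13 (4.09-fold, limma adjusted p = 1.1e-07) in YFP- and 2.38 ± 0.13 (5.21-fold, adjusted p = 9.5e-09) in YFP+. Timm9, its partner, was at 3.55, 3.30, 3.57 and 3.11 in unstimulated libraries, at 5.16, 5.05, 4.97 and 5.44 in YFP- and at 5.32, 5.37, 5.19 and 5.33 in YFP+. Timm9 rose by 1.77 and 1.92, that is 3.41-fold and 3.78-fold, with the sorted groups overlapping each other but not the unstimulated group. Among all genes tested, the rise of Timm10 stood at percentile 96.2 in YFP- and 96.9 in YFP+, and that of Timm9 at 94.5 and 94.9.

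Timm8a1, which works with Timm13 on another set of precursors, was at 3.21, 3.45, 3.56 and 2.39 log2 CPM in unstimulated libraries, at 4.56, 4.57, 4.61 and 4.92 in YFP- and at 5.02, 4.93, 5.0 and 5.18 in YFP+. Unstimulated m4 was the lowest library by far, and all groups stayed separate, with rises of 1.51 ± 0.21 and 1.88 ± 0.21 (limma adjusted p = 6.8e-05 and 4.9e-06). Of its 75-base stretches 39.9% also occur in other genes, mainly the pseudogene Gm9797, which held 25 to 191 reads against at least 170 for Timm8a1, so part of its level may depend on read assignment. Timm8b, its paralog, was at 5.46, 5.44, 5.47 and 5.38 in unstimulated libraries, at 5.71, 5.62, 5.82 and 6.14 in YFP- and at 5.87, 5.85, 5.97 and 6.16 in YFP+. It rose by 0.38 and 0.52 (adjusted p = 0.022 and 0.0028). The YFP- call was lost without unstimulated m4 (0.37, adjusted p = 0.054), without YFP- m4 (0.28, adjusted p = 0.076), with no filter (adjusted p = 0.054) and under each of the 5 settings that ended the Tomm70a call (0.14 to 0.27). The YFP+ call was lost only with the ribosomal features left out of the totals (0.33, adjusted p = 0.064). Timm13 rose by 0.46 (adjusted p = 0.011) and 0.76 (adjusted p = 0.00024), and the first of these calls was lost with no filter (adjusted p = 0.05) and under those 5 settings (0.21 to 0.35).

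**Figure D2:**
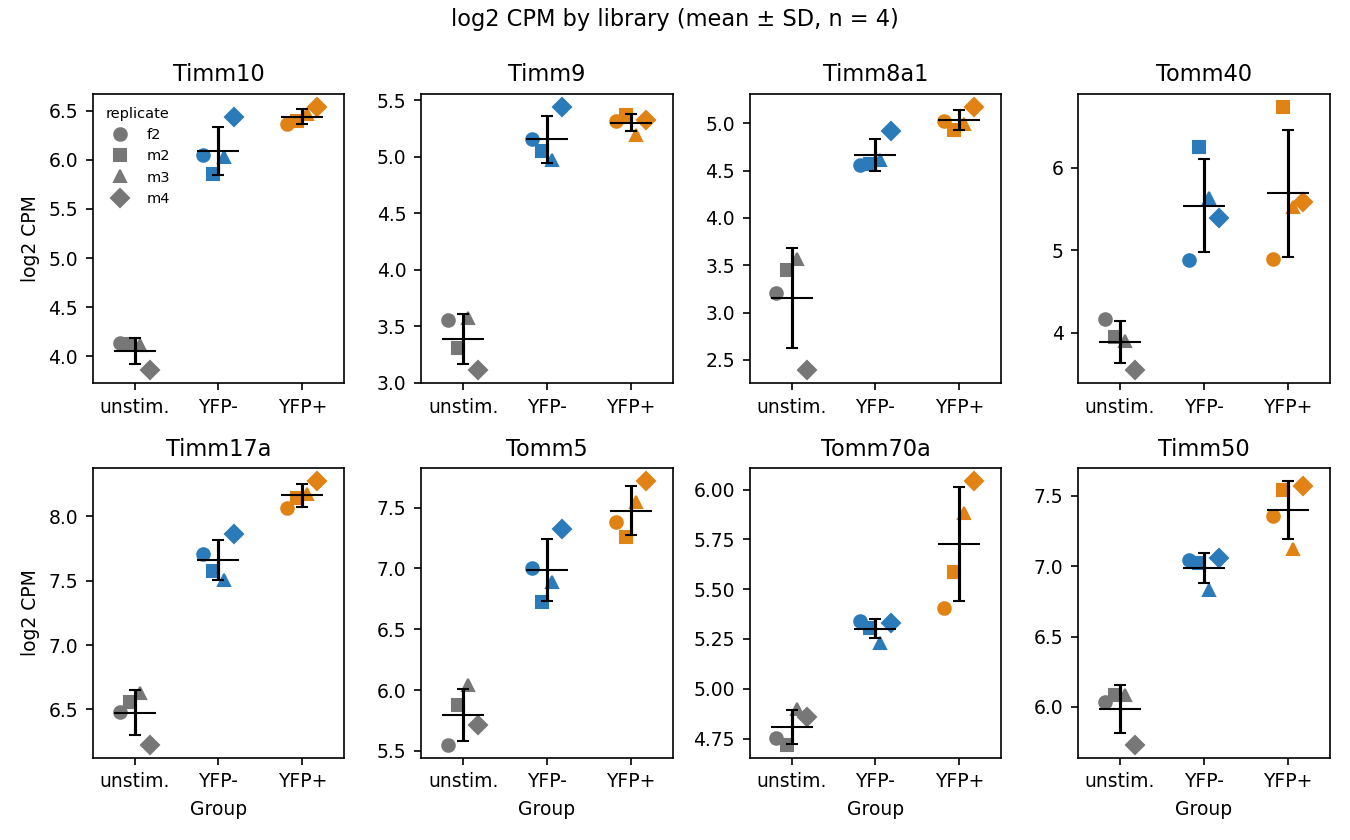
log2 CPM (vertical axis, a separate range in each panel) of 8 genes in unstimulated, YFP- and YFP+ libraries, with a marker shape for each replicate label and bars for the mean ± SD (n = 4). Timm10, Timm9, Timm8a1 and Tomm40 show a large step from unstimulated to both sorted groups, and Timm17a, Tomm5, Tomm70a and Timm50 are the 4 genes called higher in YFP+ than in YFP-.

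Of the remaining genes, Timmdc1 and Tomm34 have names that place them with the translocases, but their known work differs. Timmdc1, which helps assemble respiratory complex I, rose by 0.99 ± 0.20 in YFP- and 0.81 ± 0.20 in YFP+ (limma adjusted p = 0.00094 and 0.0027). Tomm34, a cytosolic cochaperone, was not called in any comparison, and its YFP+ libraries ranged from 4.16 (m3) to 5.91 (f2) log2 CPM. Tomm40l, a paralog of the channel, was at 3.24, 3.08, 2.88 and 3.04 in unstimulated libraries, at 3.75, 3.83, 3.54 and 4.01 in YFP- and at 4.0, 3.88, 3.24 and 3.55 in YFP+. It rose by 0.72 (adjusted p = 0.0039) and 0.61 (adjusted p = 0.0086), with YFP+ m3 equal to unstimulated f2 at 2 decimals. Of its exonic bases, 64.3% lie under Nr1i3 on the opposite strand, which held 0 to 8 reads. Where the strand was not used, reads on the shared bases may have been left unassigned, which was not tested. Tomm6, Tomm20l and Timm8a2 did not pass the filter, with 0 to 15, 0 to 3 and 0 to 4 reads per library. For Tomm6, a small TOM subunit, 84.2% of exonic bases lie under other annotated genes and 67.1% of 75-base stretches occur in them, so its reads may have been left unassigned, which was not tested.

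Between the sorted groups only 4 members were called, all higher in YFP+: Timm17a by 0.50 ± 0.12 (limma adjusted p = 0.0079), Tomm5 by 0.49 ± 0.15 (0.037), Tomm70a by 0.43 ± 0.14 (0.041) and Timm50 by 0.41 ± 0.13 (0.037). These are 1.33- to 1.42-fold differences. Among all genes tested, 3.28% were called higher in YFP+ and 18.5% lower. The YFP+ and YFP- libraries did not overlap for Timm17a, Tomm70a and Timm50, while for Tomm5 the YFP- library m4 (7.33) lay above the YFP+ library m2 (7.26). Those of Timm8a1, which was not called (limma adjusted p = 0.24), did not overlap either. Of all genes tested, 4.31% were higher in YFP+ without overlap and 17.8% lower. Timm17a was called under all 26 alternatives (adjusted p 0.00069 to 0.032). For Tomm5, the call was lost without unstimulated m2 (adjusted p = 0.051), YFP- f2 (0.079), m2 (0.12) or m3 (0.077), or YFP+ m3 (0.068) or m4 (0.12). Tomm70a lost its call on leaving out any 1 library other than YFP+ f2 and m2 (adjusted p 0.051 to 0.13). Timm50 lost it without unstimulated f2 (0.051), without any 1 of the YFP- libraries (0.056 to 0.084), and without YFP+ m2 (0.087) or m4 (0.11). Tomm5, Tomm70a and Timm50 also lost their calls with only the 8 libraries compared (limma adjusted p = 0.069, 0.10 and 0.073). With no filter they were lost as well (0.18, 0.12 and 0.12).

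The count of 4 was also sensitive as a whole. It was 1 without YFP- f2, m2 or m3 or YFP+ m4, 2 without unstimulated f2 or m2, 3 without YFP+ m3, and 8 without YFP+ f2. The direction of the typical gene between these groups depends on scaling: as deposited the median gene was lower in YFP+ by 0.19, and after centring each library on its median the all-gene median was 0.07. Centred values gave 12 members higher and 0 lower, with 1505 genes higher and 1491 lower overall. Trimmed-mean scaling gave 10 members, with 1170 genes higher and 1677 lower. Voom weights gave 11 members, with 1292 and 1637 genes, and quantile normalization 6 members, with 1163 and 1430 genes, against 405 and 2286 as deposited. Relative to the median gene, the members' median was higher by 0.46 as deposited, 0.27 with quantile normalization and 0.37 without YFP+ m3. With no filter on low values, where most of the 55487 features have few reads, it was 0.22 and 1 member was called.

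Several members that were not called were higher in YFP+ by similar amounts. Timm10b differed by 0.54 ± 0.28 (limma adjusted p = 0.19), Timm29 by 0.44 ± 0.18 (0.10), Timm8a1 by 0.37 ± 0.21 (0.24), Tomm20 by 0.36 ± 0.14 (0.090), Timm10 by 0.35 ± 0.13 (0.081) and Timm21 by 0.34 ± 0.13 (0.085). At an unadjusted p under 0.05 the count of higher members was 9. The lowest values were Tomm34 at -0.29 ± 0.30 (adjusted p = 0.53), Timmdc1 at -0.18 ± 0.20 (0.55), Tomm40l at -0.12 (0.68) and Timm17b at -0.11 ± 0.09 (0.40). The YFP+ and YFP- libraries of Timm17b did not overlap, although the difference was not called and turned positive with centred, trimmed-mean and voom scaling. Of all genes tested, 17.8% were lower in YFP+ without overlap.

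**Figure D3:**
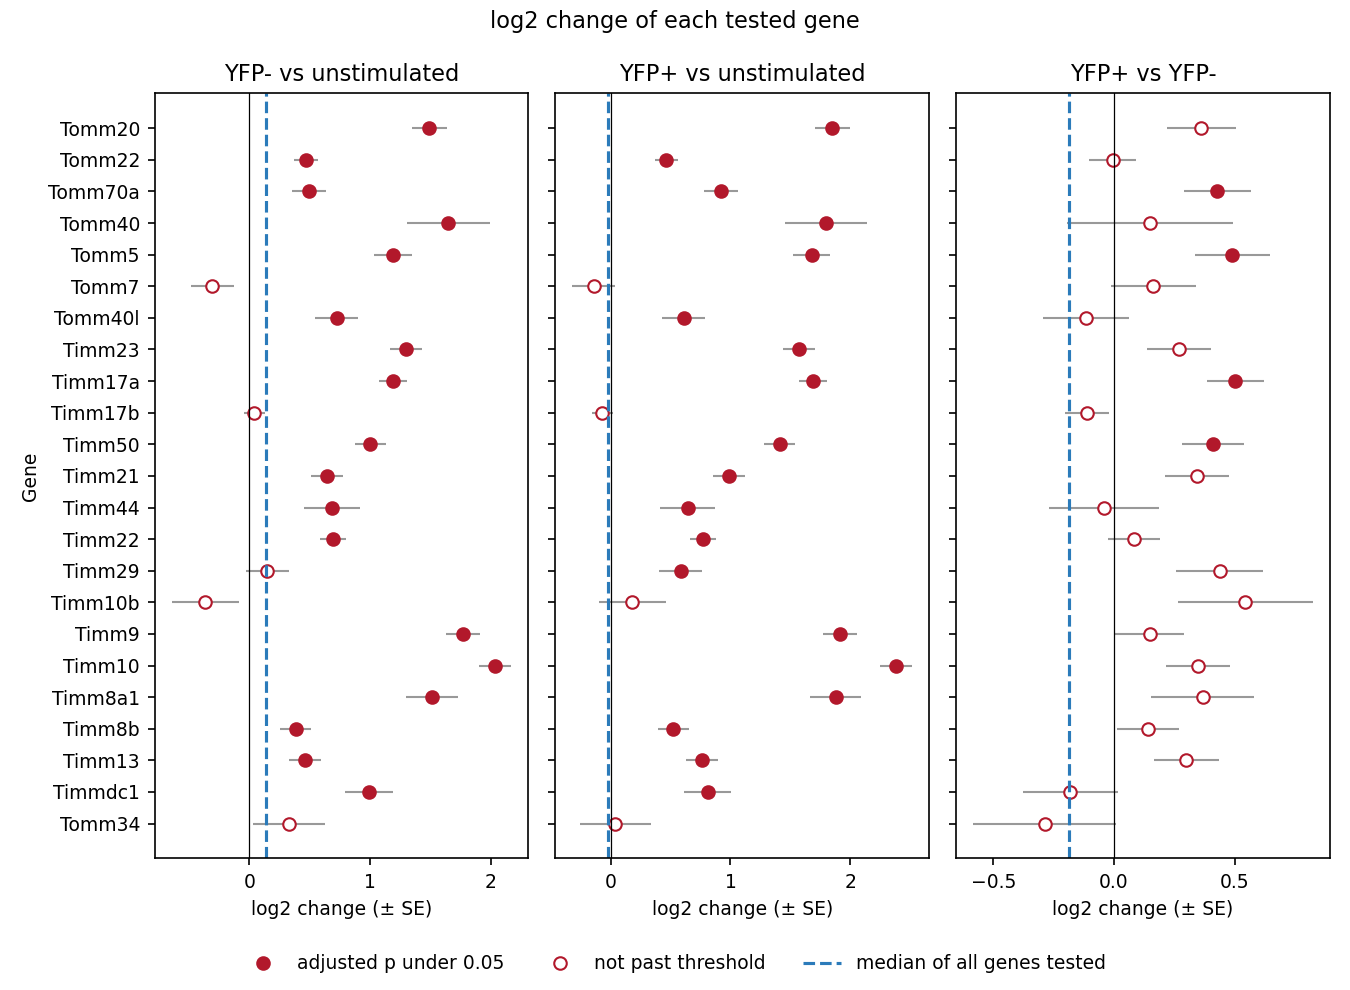
log2 change (horizontal axis, ± SE from limma) of each of the 23 tested genes in the 3 comparisons, with filled points for an adjusted p under 0.05 and open points for the rest. The dashed line is the median of all 12364 genes tested (0.14, -0.03 and -0.19 from left to right), and 20, 21 and 22 of the 23 genes lie to its right.

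Ratios of related genes within a library do not depend on how libraries are scaled, so 4 pairs were compared by 2-sided exact permutation tests over 8 libraries, with Benjamini-Hochberg adjustment over 12 tests. The smallest p that 4 against 4 libraries allow is 0.0286, or 0.0381 after adjustment here. The log2 ratio of Timm17a to Timm17b reads was -0.29, -0.35, -0.30 and -0.68 in unstimulated libraries, 0.80, 0.65, 0.61 and 0.91 in YFP- and 1.29, 1.28, 1.37 and 1.48 in YFP+. It therefore rose in steps of 1.15 and 0.61, and Timm17b had more reads than Timm17a only in the unstimulated libraries (exact permutation, adjusted p = 0.0381 for each of the 3 comparisons). Timm8a1 to Timm8b rose by 1.13 from unstimulated to YFP- and by 0.23 from YFP- to YFP+ (exact permutation, adjusted p = 0.0381 for both), with means of -2.28 ± 0.49, -1.16 ± 0.08 and -0.93 ± 0.06 (SD, n = 4). Timm10 to Timm10b rose by 2.40 in YFP- and 2.20 in YFP+ against unstimulated cells (exact permutation, adjusted p = 0.0381 for both) and differed by -0.20 between the sorted groups (0.592).

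Tomm40 to Tomm40l gave log2 ratios of 0.92, 0.87, 1.02 and 0.51 in unstimulated libraries, 1.13, 2.41, 2.09 and 1.38 in YFP- and 0.90, 2.85, 2.28 and 2.04 in YFP+. The YFP- libraries were all above the unstimulated ones (0.92, exact permutation, adjusted p = 0.0381), while YFP+ f2 fell among the unstimulated libraries and the difference of 1.19 did not pass (exact permutation, adjusted p = 0.103). The channel gene and its paralog thus both rose in YFP-, the former by more. Tomm20 to Tomm20l was not tested, since Tomm20l was under the filter.

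**Figure D4:**
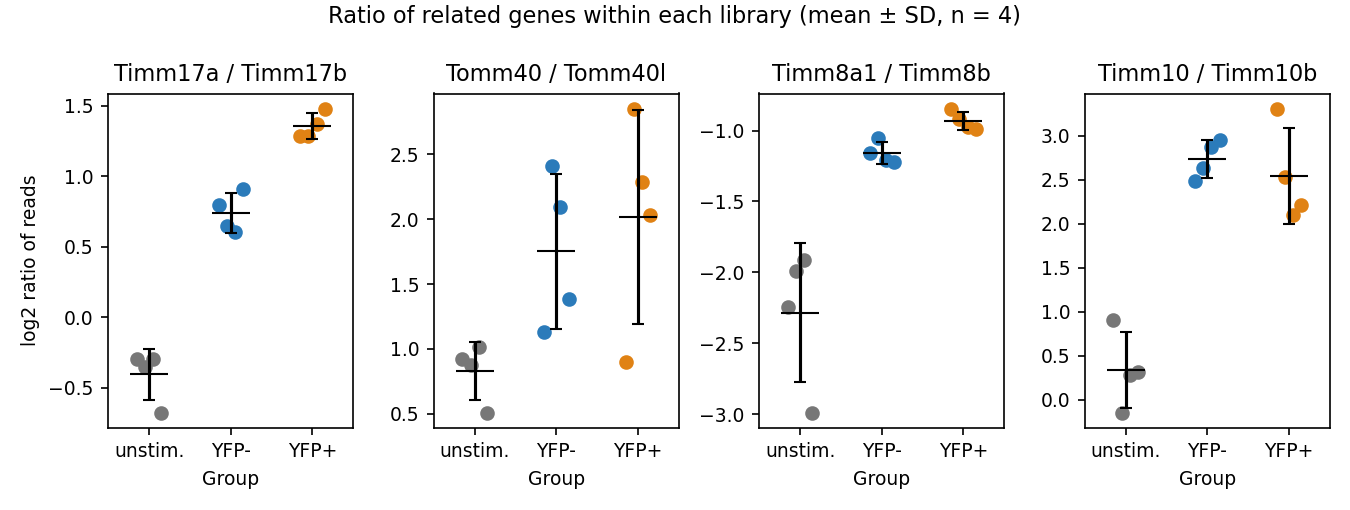
log2 ratio of reads of 2 related genes in each library (points) with the mean ± SD (n = 4) for unstimulated, YFP- and YFP+ libraries, on a separate vertical range for each pair. Timm17a/Timm17b and Timm8a1/Timm8b step up from group to group without overlap, while in Timm10/Timm10b the sorted groups overlap and in Tomm40/Tomm40l a YFP+ library falls among the unstimulated ones.

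The 4 tested genes with CACGTG in the window searched were ranked by rise among the 20 tested members with a promoter entry. Against unstimulated cells they ranked 1 (Timm10), 2 (Timm9), 4 (Timm8a1) and 5 (Tomm20) in YFP-. In YFP+ they ranked 1 (Timm10), 2 (Timm9), 3 (Timm8a1) and 4 (Tomm20). Between the sorted groups they ranked 7, 8, 9 and 12. Over all genes tested, the 1053 with CACGTG in a promoter had a median log2 change of 0.27 in YFP- against unstimulated cells, compared with 0.12 for the 7652 without it. In YFP+ these medians were 0.09 and -0.10 against unstimulated cells, and -0.15 and -0.23 against YFP-. This is a description of letters in a window, and no binding of any factor was measured. The 9 tested genes with the ETS core were spread over the order in YFP- against unstimulated cells, at rank 1 (Timm10), 6 (Timm23), 10 (Timmdc1), 13 (Tomm70a), 14 (Tomm22), 16 (Timm8b), 17 (Tomm34), 18 (Timm29) and 20 (Timm10b). Timm8a2, which also holds it, was under the filter. Tomm40 (1.65 and 1.79) and Timm23 (1.30 and 1.57) rose without CACGTG in the window searched.

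Other genes of mitochondrial import were described beside the translocases, from a list of 31 chosen by function, all of which were tested. Against unstimulated cells, 17 were called higher and 4 lower in YFP-, where 30.2% of all genes were called higher and 20.9% lower. In YFP+ 19 were called higher and 5 lower, against 27.5% and 33.3% of all genes. The median log2 changes of the list were 0.60 and 0.58. Chchd4, the oxidoreductase of the disulfide relay that traps small Tim proteins and other substrates between the membranes, was at 4.20, 4.60, 4.68 and 4.26 log2 CPM in unstimulated libraries, at 6.68, 6.53, 6.51 and 6.93 in YFP- and at 7.0, 7.01, 6.90 and 7.18 in YFP+. It rose by 2.23 ± 0.14 and 2.59 ± 0.14 (limma adjusted p = 8.4e-08 and 7.7e-09), with only YFP- m4 reaching the lowest YFP+ library. Hspa9, the heat shock protein that drives the import motor, rose by 2.24 and 2.48 (adjusted p = 7.2e-05 and 1.5e-05). The matrix chaperonin Hspd1 rose by 1.91 and 2.08 (adjusted p = 0.00013 and 3.2e-05), and Mtx2, of the outer membrane sorting machinery, by 1.46 and 1.31.

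The list also held genes that fell. Mtch1, an outer membrane insertase, was at 5.45, 5.34, 5.44 and 5.45 in unstimulated libraries, at 4.36, 4.06, 4.16 and 3.88 in YFP- and at 3.32, 3.90, 4.25 and 3.95 in YFP+. It fell by 1.30 and 1.57 on the log2 scale (limma adjusted p = 5e-05 and 4.8e-06). Genes chosen after their values were seen include Immp2l, a subunit of the inner membrane peptidase (-1.33 and -0.99), Chchd6, of the MICOS contact site (-1.10 and -0.83), and Dnajc15, a motor cochaperone (-0.66 and -0.92), all called in both sorted groups. Pmpca, the noncatalytic subunit of the presequence peptidase, was called lower only in YFP+ (-0.60, adjusted p = 0.031), and the call was lost without unstimulated f2 (0.086), m2 (0.071) or m3 (0.083) or YFP+ m3 (0.086) or m4 (0.068), with no filter (0.17) and with only the 8 libraries compared (0.056). Between the sorted groups, 1 of the 31 was called higher in limma, against 3.28% of all genes tested, and 0 lower, against 18.5%. The count called higher was thus near the share over all genes. At an unadjusted p under 0.05 the counts were 4 and 1, with voom weights 8 and 0, and with a replicate block 1 and 1. The gene called higher was Hspe1, the cochaperonin of Hspd1, at 7.60, 7.41, 7.52 and 7.87 in YFP- and 7.91, 8.07, 8.37 and 8.37 in YFP+. Its difference was 0.58 ± 0.14 (limma adjusted p = 0.011, and 0.072 with no filter). Pmpca had the lowest value of the list between the sorted groups, -0.65 ± 0.22. It was just short of a call (limma adjusted p = 0.051), and its YFP+ and YFP- libraries did not overlap.

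Levels of different members can be compared only per length, here as CPM per kilobase of annotated exons (mean ± SD, n = 4). In unstimulated cells Timm8b (83.8 ± 2.23), Tomm22 (76.1 ± 2.66), Timm13 (75.1 ± 8.10), Tomm5 (64.5 ± 9.47) and Tomm7 (61.1 ± 7.09) led on this scale. In YFP+ cells the order was Tomm5 (206 ± 28.6), Timm23 (137 ± 17.5), Timm13 (128 ± 19.0), Timm8b (121 ± 12.2), Timm10 (107 ± 5.96) and Tomm22 (105 ± 4.88), where Timm23, Timm13 and Timm8b, and likewise Timm10 and Tomm22, lay within each other's spread. Timm10 moved from 20.5 ± 1.80 to 107 CPM per kilobase, while Timm9, its partner in the hexamer, moved from 2.46 ± 0.365 to 9.23 ± 0.478. The annotated exons of Timm9 span 4282 bases against 815 for Timm10, and which of these exons the cells use was not measured. Tomm40 was low on this scale, at 3.33 ± 0.566 in unstimulated and 12.8 ± 7.46 in YFP+ cells. Its annotated exons span 4513 bases, and which of them the cells use was likewise not measured.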

How the data were processed

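The authors deposited 1 table of log2 CPM (log2 of counts scaled to a library total of 1000000) for 12 libraries, with an Ensembl gene ID, symbol and biotype on each line, per the file headers. The SMARTer Ultra Low kit was used on 10 ng of RNA, with paired ends of 150 bases, per the labels' protocols. The submitters' processing notes name bcl2fastq, STAR 2.7.9a, featureCounts 2.0.3 of Subread and GRCm38. The annotation release and the use of strand are not given in the sources used here. The deposited values equal log2 of a read count plus a prior of 0.5 reads, scaled by library total, to within 1e-12, so whole reads were recovered for 100% of values (within 0.01 reads). Of 55774 lines, 287 repeated another and were dropped. PCR copies were not marked by molecular identifiers, so the 3-read floor covers counting error only. No replicates were within sampling noise of each other (chi-square per degree of freedom at least 21.4).

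All 12 libraries were fitted together in limma 3.58.1 (R 4.3.3) with lmFit, 1 coefficient per group and eBayes with an intensity trend. The fit used the 12364 genes with log2 CPM above 0 in at least 4 libraries, with Benjamini-Hochberg adjustment over all of them and calls under 0.05. It was tried on simulated reads with the same dispersion for every gene and balanced changes. That trial did not cover libraries of unequal spread or shifts in scaling. The 2 comparisons with unstimulated cells share those libraries, and each sorted group also enters 2 comparisons. Paralog ratios used recovered reads plus 0.5 and 2-sided exact permutation tests. Positions, exon lengths and shared sequence came from GENCODE M21 on GRCm38, and promoters from RefSeq on GRCm38.p6. Ratios, lists and figures were made with scipy 1.17.1, pandas 2.3.3, matplotlib 3.10.9 and numpy 2.4.6 under Python 3.11.15.

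The members, the list of 31 other import genes, the marker lists and the motifs were chosen with earlier results of these data known. Every member is named. Values in every library are given for called members among the 3 largest rises or falls of a comparison and for tested paralog pairs. Timm50, outside this rule, was chosen after its values were seen. Of the other import genes, the 4 largest called changes per comparison and any call between the sorted groups are named. The alternatives tried were a replicate block, only the 8 libraries compared, no filter or a stricter one, 1 CPM as pseudocount, other scalings, no trend, sample weights, voom weights, calls at an adjusted p under 0.01, and each library left out in turn. Of 3 ribosomal genes planned by name for removal from the totals, 0 were in the table, so that setting removed the 356 features of ribosomal biotypes alone. A setting that also removed Lars2, Mir6236 and Gm23935 (359 features) was chosen after seeing the data.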

Additional observations from a re-analysis of the deposited data

Results flagged for a closer look

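Of 81 sets of 4 values (each tested gene and tested ratio in each group), 9 had 1 library whose gap to the nearest other, as a share of the whole range, passed the 95% limit of Dixon's test for 4 values. Chance gives about 4.05. In unstimulated cells, m4 was the low library for Timm50 (5.73 log2 CPM against 6.04 to 6.09, gap share 0.859), for Timm10 (3.86 against 4.12 to 4.14, 0.917) and for the Timm17a to Timm17b log2 ratio (-0.68 against -0.35 to -0.29, 0.845). The unstimulated library f2 was low for Timm22 (5.04 against 5.29 to 5.30, 0.933) and Timm17b (6.78 against 6.90 to 6.93, 0.832), and m2 was high for Tomm22 (7.05 against 6.94 to 6.95, 0.873). Among YFP- libraries, m4 was high for Timm8a1 (4.92 against 4.56 to 4.61, 0.842) and Tomm20 (8.34 against 7.84 to 7.89, 0.889), and m3 was low for Timm50 (6.83 against 7.02 to 7.05, 0.865). No set was marked in YFP+ libraries.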

How the results depend on the processing

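Of 69 results for single members (23 genes in 3 comparisons), 37 kept their direction and their side of the threshold under all 26 alternatives. Of the 1794 values, 1639 were unchanged in this sense, 75 lost the call, 33 gained it and 47 changed sign. The last were mostly small differences between the sorted groups. YFP+ against YFP- gave for centred values, trimmed-mean scaling and voom weights 0.15, 0.079 and 0.078 (Timm17b), 0.22, 0.15 and 0.16 (Timm44), 0.081, 0.0098 and 0.022 (Timmdc1), 0.26, 0.19 and 0.18 (Tomm22), and 0.15, 0.075 and 0.092 (Tomm40l). Quantile normalization gave 0.047 (Timm44), 0.11 (Timmdc1), 0.053 (Tomm22) and 0.14 (Tomm40l), and sample weights 0.072 (Timm44), 0.010 (Tomm22) and 0.0077 (Tomm40l). Leaving out 1 library gave -0.22 to 0.23 for Timm44 (positive without YFP+ m3 or YFP- f2), -0.058 to 0.036 for Tomm22, -0.53 to 0.051 for Tomm34 and -0.23 to 0.027 for Tomm40l (both positive without YFP+ m3), and -0.20 to 0.41 for Tomm40. Tomm40 was below 0 without YFP+ m2 or YFP- f2, and its ratio to Tomm40l spanned -0.016 (without YFP+ m2) to 0.64.

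Against unstimulated cells, Timm17b turned in YFP+ with centred values (0.053), trimmed means (0.0099) and voom weights (0.0083), and in YFP- with centred (-0.10), quantile (-0.20), trimmed-mean (-0.069) and voom (-0.070) values and with ribosomal biotypes (-0.0022) or the added ribosomal features (-0.14) left out of the totals. Those added features also turned Timm10b in YFP+ (-0.011), Timm29 in YFP- (-0.033) and Tomm34 in YFP+ (-0.15). Tomm34 in YFP+ was -0.040 with ribosomal biotypes left out and -0.20 to 0.38 on leaving out 1 library (below 0 without YFP+ f2 or m2 or unstimulated m4). Members called lower were 1 in YFP- with quantile normalization (Tomm7) and 1 in YFP+ with the added features left out (Timm17b). That last scaling gave 3073 genes higher and 3447 lower in YFP- against unstimulated cells, where the deposited scale gave 3735 and 2586. The cause of these changes was not tested.

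Members called higher in YFP+ against YFP- numbered 1 with only the 8 libraries compared, with no filter, with no trend and at an adjusted p under 0.01, 2 with the added ribosomal features left out, 12 centred, 10 with trimmed means and 11 with voom. Leaving out 1 library gave 1 to 8. The members' median less that of all genes was 0.22 with no filter. Other import genes called higher in that comparison numbered 0 with no filter and at an adjusted p under 0.01, 4 with quantile normalization, 11 centred, 8 with trimmed means, 8 with voom, and 1 to 2 on leaving out 1 library. Called lower were 1 with the replicate block, a pseudocount of 1 CPM, quantile normalization and both ribosomal settings, and 0 to 2 on leaving out 1 library. Paralog ratios could not pass with 3 against 4 libraries (smallest exact permutation p 0.0571) or by an exact sign-flip over 4 pairs (0.125).

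Libraries with the same replicate label did not deviate together in every pair (r of -0.06 to 0.10, -0.04 to 0.38 and 0.05 to 0.37 in the 3 comparisons, with 1, 2 and 3 of 4 libraries closest to their own label), so the label was not taken to pair them. Between the sorted groups f2 alone was under 0.1 (r = 0.054), and m2, m3 and m4 were closest to their own label, a hint from the data and not from the design. A replicate block left the members called higher at 18, 19 and 4. At these depths tested members had at least 121 reads in each library, so spread between libraries and scaling, more than counting, limit the precision.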
